A study of Mus musculus with 8 samples.

Results

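The genes described here are 211 mouse zinc finger genes whose symbol is Zfp followed only by digits and which were expressed in embryonic stem cells (ESCs) or embryoid bodies (EBs). They were chosen by name and by level, as genes with a mean of 10 CPM (counts scaled to library size, here each count over its library's total) or more over 8 libraries. Zfp462, the gene knocked out in the study, was left out by name, as were Zfp42, Zfp296, Zfp352 and Zfp644. The table listed 55401 genes, of which 374 carried such a symbol, and 158 of these lay below the level. The choice used the level and no difference between groups. However, 25 members lay below 10 CPM in at least 1 group and so entered through the groups in which they were higher, while 186 reached 10 CPM in every group. Just inside the threshold lay Zfp523, Zfp386 and Zfp449, at 10.04, 10.05 and 10.05 CPM. Just outside lay Zfp319, Zfp182 and Zfp251, at 9.83, 9.47 and 9.34 CPM. All 211 members passed the low-count filter of the test, which kept 17125 genes.

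The study measured polyadenylated RNA in R1 cells, a mouse ESC line, to compare self-renewal and differentiation with and without Zfp462. The 4 groups held 2 libraries each. Control ESCs (genotype WT) and Zfp462 knockout ESCs were collected undifferentiated, from gelatin-coated plates in medium with serum and leukaemia inhibitory factor, and control and knockout EBs were collected after 3 days as aggregates in Petri dishes. The knockout cells came from stable knockout lines, and the labels do not say how many lines or clones there were or whether replicate libraries are separate cultures. P-values therefore measure only the spread between these libraries, which may be technical. In bulk RNA, fewer cells of a type and less RNA per cell cannot be told apart.

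Many of these genes encode C2H2 zinc finger proteins, in which a row of small zinc-binding fingers reads DNA. Those that also carry a Krüppel-associated box (KRAB) recruit the corepressor TRIM28 (also called KAP1), and with it the histone methyltransferase SETDB1, to the sequences they bind. In mouse ESCs such proteins silence endogenous retroviruses and other transposable elements, and a few of them, ZFP57 above all, keep the DNA methylation of imprinted regions. KRAB zinc finger genes lie in large clusters of tandem duplicates. Zfp is a name given for sequence and not for function, so the group also holds transcription factors without a KRAB box, RNA-binding proteins and ubiquitin or SUMO ligases.

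Zfp462 RNA, the check of the labels, fell from 183 and 197 CPM to 104 and 107 CPM between control and knockout ESCs, and from 153 and 130 CPM to 102 and 102 CPM between control and knockout EBs (CPM per library here and below use library sizes adjusted for composition, while means over the 8 libraries use plain totals). The log2 change was -0.85 in ESCs (adjusted p = 0.000366, edgeR's quasi-likelihood test) and -0.47 in EBs (adjusted p = 0.0207), so the RNA was lower but present in the knockout libraries. Library totals ranged from 12119763 to 16228426 counts. A list of 6 pluripotency markers summed to 3579 and 3616 CPM in control ESCs, 2851 and 2626 CPM in their knockout and between 1999 and 2144 CPM in EB libraries, with no marker at 0. The 4 markers of differentiation by day 3 summed to between 304 and 373 CPM in ESC libraries, to 1682 and 1783 CPM in control EBs and to 1092 and 1063 CPM in their knockout. The 7 markers of extraembryonic endoderm, a yolk sac lineage, summed to 1823 and 1934 CPM in control ESCs, against 8507 and 6278 CPM in the knockout, and to 1883 and 1972 CPM in control EBs, against 3801 and 4128 CPM in the knockout. A list of 12 adult liver markers summed to 2122 CPM in knockout EB replicate 1 and to between 6.68 and 140 CPM elsewhere, and all 12 reached 1 CPM in that library. The part of any of these marker lists in the results below was not tested.

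Promoter windows are shown for the 4 members whose changes between groups are described first. Zfp819 was lower in knockout ESCs, Zfp57 higher and Zfp365 lower in knockout EBs, and Zfp59 had the lowest log2 change from control ESCs to control EBs. Each window runs 5′ to 3′ on the gene's strand, from 250 bases before to 50 bases after the start that RefSeq gives on GRCm38.p6, and capitals mark CG dinucleotides. The windows lie at chr7:43606919-43607218 (plus strand) for Zfp819, chr17:37000913-37001212 (plus strand, the one of 3 windows that starts at the annotated gene start) for Zfp57, chr10:67912613-67912912 (minus strand) for Zfp365 and chr7:27838334-27838633 (plus strand) for Zfp59.
Zfp819: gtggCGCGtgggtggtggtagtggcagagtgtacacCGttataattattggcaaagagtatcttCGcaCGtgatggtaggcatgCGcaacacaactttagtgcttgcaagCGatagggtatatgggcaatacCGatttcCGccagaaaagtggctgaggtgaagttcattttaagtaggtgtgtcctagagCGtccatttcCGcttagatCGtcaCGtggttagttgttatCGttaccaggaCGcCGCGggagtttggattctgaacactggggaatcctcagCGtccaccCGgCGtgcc
Zfp57: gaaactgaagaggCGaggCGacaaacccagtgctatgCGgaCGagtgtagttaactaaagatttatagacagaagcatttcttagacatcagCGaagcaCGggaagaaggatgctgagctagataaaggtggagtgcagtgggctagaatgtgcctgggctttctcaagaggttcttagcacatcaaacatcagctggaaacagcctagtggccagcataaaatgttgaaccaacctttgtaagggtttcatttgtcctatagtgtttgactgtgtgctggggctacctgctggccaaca
Zfp365: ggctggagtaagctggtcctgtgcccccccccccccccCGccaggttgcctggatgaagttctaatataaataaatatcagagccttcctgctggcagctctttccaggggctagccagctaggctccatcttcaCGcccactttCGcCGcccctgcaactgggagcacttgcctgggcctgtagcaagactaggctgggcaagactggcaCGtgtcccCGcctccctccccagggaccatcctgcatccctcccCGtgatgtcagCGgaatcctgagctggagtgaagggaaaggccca
Zfp59: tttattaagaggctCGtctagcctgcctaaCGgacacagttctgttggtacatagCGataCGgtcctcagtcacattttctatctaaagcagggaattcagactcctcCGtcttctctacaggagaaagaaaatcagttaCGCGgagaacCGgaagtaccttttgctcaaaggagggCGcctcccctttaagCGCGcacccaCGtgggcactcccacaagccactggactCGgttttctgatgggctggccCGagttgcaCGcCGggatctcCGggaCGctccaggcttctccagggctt
The Zfp819 window holds 20 CG dinucleotides, that of Zfp59 holds 18, that of Zfp365 holds 8 and that of Zfp57 holds 6. RefSeq windows were matched to 170 of the 211 members, 1 window each, and their median was 14 CG dinucleotides. The median was 10 in 86 members with a KRAB box, 18 in 84 without one, and 7 over all 32851 windows of the table. Neither of the motifs searched on both strands, ATGCAAAT (the octamer read by POU factors) and TGCCGC (the letters that ZFP57 reads when methylated), is in the 4 printed windows. Over all 211 windows that belong to members, ATGCAAAT was in 2.37% and TGCCGC in 15.2%, against 1.74% and 11.6% of all windows. These matches are descriptions of letters.

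A KRAB box was looked for in the translated coding sequence by a pattern of its conserved residues. The pattern matched 104 members, called members with a KRAB box here, and did not match 107, called members without one. A box that departs from the pattern is missed, so the 107 may include genes with a KRAB box. A wider pattern matched 109 members. Members with a KRAB box had a median of 12 C2H2 fingers (range 2 to 23), and those without had a median of 8 (range 0 to 37). Of these last, 5 had no finger of the C2H2 spacing. They include Zfp36, whose protein, tristetraprolin, has fingers of another kind that bind AU-rich RNA, and Zfp365, a centrosomal protein. The transcripts with a KRAB box were poorer in G and C, with a median GC content of 40.4% against 48.2% without the box and 49.7% over all genes tested.

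Levels spanned from 10.04 CPM, at the threshold, to 546 CPM, with a median of 20.6 CPM for members with a KRAB box and 35.2 CPM for those without. Zfp106, which encodes an RNA-binding protein, had the highest mean at 546 CPM. It was followed by Zfp207, whose protein binds microtubules of the spindle, at 362 CPM, Zfp57 at 327 CPM, Zfp990 at 279.6 CPM, Zfp981 at 251 CPM and Zfp638 at 206 CPM. Per kilobase of exon the order changed. Zfp978 stood first at 106 CPM per kb, then Zfp57 at 86.4, Zfp990 at 79.9, Zfp981 at 79.4, Zfp207 at 54.3 and Zfp106 at 52.4, while Zfp638, with 15810 bases of exon, stood at 13.0. Zfp978, Zfp990 and Zfp981 belong to a chromosome 4 cluster of near-identical copies, so that their separate levels are uncertain.

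Near-identical copies were counted by 50-base words of each member's longest transcript that also occur in other genes. In 85 members no word was shared, and in 27 members, 25 of them with a KRAB box and 13 on chromosome 4, 20% or more of the words were. How reads matching more than 1 gene were counted is not stated in the labels, and values of these 27 members are uncertain.

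In knockout ESCs, 15 members were lower and 2 were higher than in control ESCs (edgeR's quasi-likelihood test, adjusted p below 0.05), against 6.2% of all genes tested called lower and 8.3% called higher. The lower members were 7.11% of 211, between 6.2% and the 8.75% lower among the 9679 tested genes at 10 CPM or more. The higher members were 0.948%, against 8.76% of those 9679 genes. The median log2 change was -0.12, against -0.03 over all genes tested, and 210 of 211 members changed by less than 2-fold. Of the lower members 4, and both higher members, had a KRAB box, and a wider pattern of the box found it in 6 of the lower members. With the trend of each library on GC content taken out, 26 members were lower and 8 higher (9.02% and 13.2% of all genes tested).

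The exception to the 2-fold limit was Zfp819 (ENSMUSG00000055102.15, chromosome 7, 43607169 to 43618285 in mm10, plus strand), a KRAB protein reported to bind KAP1 in mouse ESCs. Its level was 21.3 and 22.5 CPM in control ESCs, only 6.85 and 9.97 CPM in knockout ESCs, then 30.8 and 24.8 CPM in control EBs and 26.7 and 25.5 CPM in knockout EBs. Both knockout ESC libraries lay below every other library. They were also below 10 CPM, so Zfp819 entered the group through the other libraries, in which it was higher. Among the 186 members at 10 CPM or more in every group, 13 (6.99%) were lower in knockout ESCs, against 15 (7.11%) of all 211. The log2 change in ESCs was -1.38 ± 0.19 (estimate ± SE, n = 2 and 2, adjusted p = 0.000952 by edgeR), and it passed the threshold in all 13 alternatives tried.

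**Figure D1:**
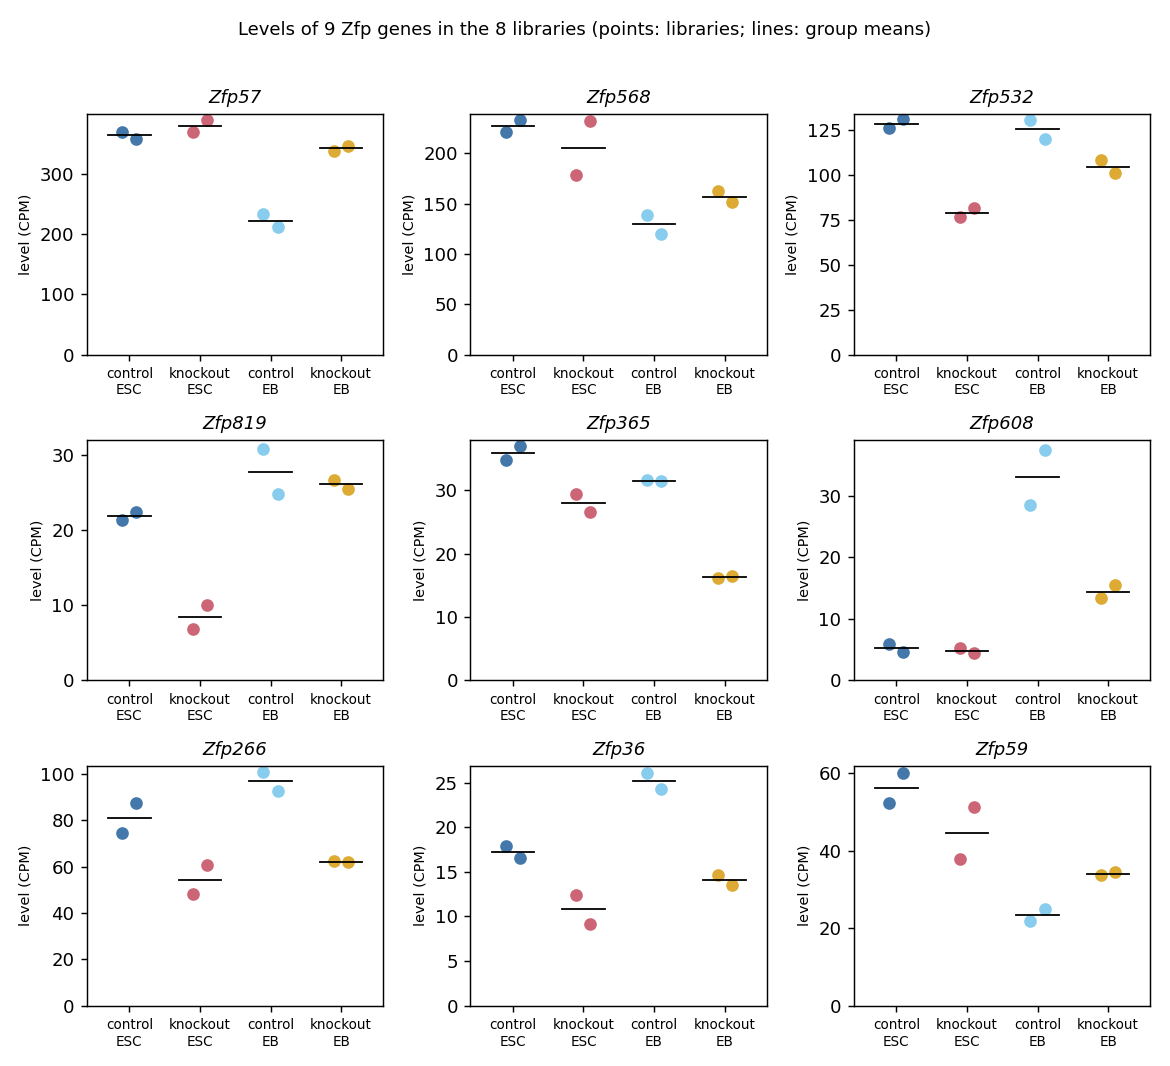
Levels in CPM (linear axes from 0) of 9 members in each library, with points for the 2 libraries of each group and a line at their mean. Zfp819 is low in the 2 knockout ESC libraries, at 6.85 and 9.97 CPM, and Zfp365 in the 2 knockout EB libraries, at 16.2 and 16.4 CPM.

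Zfp532, on chromosome 18, encodes a protein of the ZMYND8-associated zinc finger complex that also holds ZFP592 and ZFP687. It stood at 126 and 131 CPM in control, and at 76.8 and 81.4 CPM in knockout ESCs (log2 change -0.70 ± 0.09, adjusted p = 0.000759 by edgeR), with no overlap between the groups. Zfp592 (0.22 ± 0.15, adjusted p = 0.367 by edgeR) and Zfp687 (-0.02 ± 0.13, adjusted p = 0.944) did not pass the test. Zfp217, whose human counterpart is a transcriptional corepressor, stood at 105 and 105 CPM in control and at 82.6 and 79.4 CPM in knockout ESCs (-0.37 ± 0.09, adjusted p = 0.0178). The groups did not overlap, although its call was lost without either control ESC library (adjusted p = 0.125 and 0.149 by edgeR).

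The other lower members by the size of the change were Zfp493 (-0.76 ± 0.19), Zfp334 (-0.74 ± 0.20), Zfp219 (-0.73 ± 0.19) and Zfp710 (-0.71 ± 0.20). Zfp219 and Zfp710 are rich in G and C (62.1% and 55.5%), and their knockout ESC libraries lay far apart. Zfp219 was at 72.5 CPM in replicate 1 and 41.6 CPM in replicate 2, and Zfp710 at 149 and 83.1 CPM, against 96 and 93.7 CPM and 183 and 196 CPM in control ESCs. All these calls passed with the GC trend removed, and each was lost without either control ESC library. The higher members were Zfp871, at 67.2 and 65.4 CPM in control and 82 and 104 CPM in knockout ESCs (0.49 ± 0.12, adjusted p = 0.0241 by edgeR), and Zfp948 (0.48 ± 0.14, adjusted p = 0.044), both KRAB genes on chromosome 17. The Zfp871 call was lost in 3 of 13 alternatives and that of Zfp948 in 7, DESeq2 among them. Both were lost without either control ESC library.

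The 2 knockout ESC libraries differed in these genes and in the table at large. From replicate 1 to replicate 2 the log2 level differed by a median of 0.34 in members with a KRAB box, 94 of 104 of which were higher in replicate 2. The median was 0.02 in members without the box and 0.03 over all tested genes at 10 CPM or more. Across the 211 members, which share the libraries, this difference had a Pearson correlation of -0.75 with GC content, against -0.72 across the 9679 tested genes at 10 CPM or more. Among members elsewhere it was 0.05 (control ESCs), -0.01 (control EBs) and 0.10 (knockout EBs). A difference over 1.5-fold between replicates was seen in 34 members (16.1%) in knockout ESCs, against 12.6% of the 9679 genes, and in 2, 5 and 0 members in the other groups in that order.

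**Figure D2:**
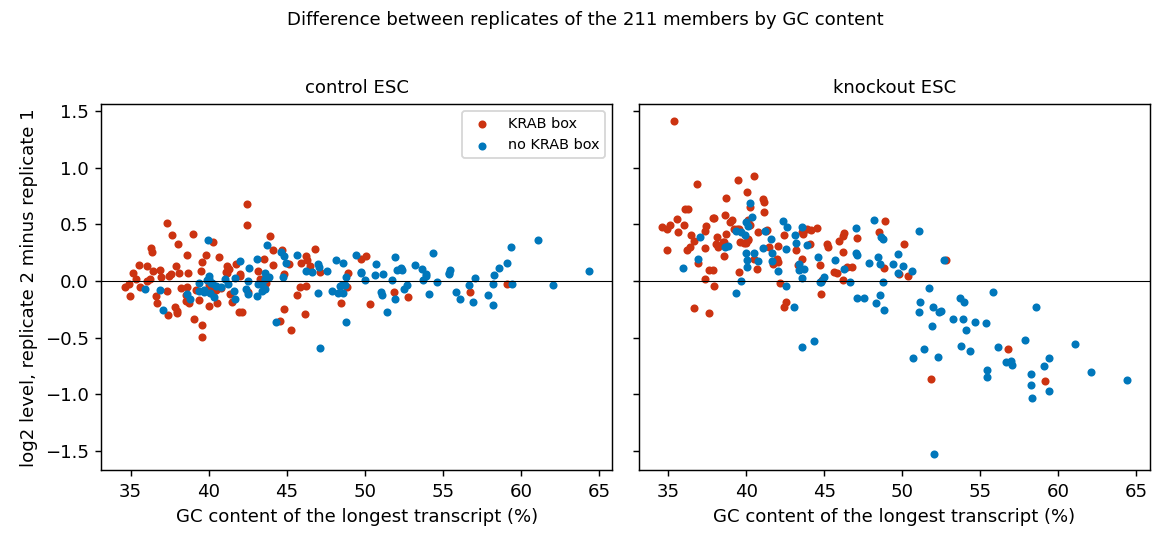
Log2 level in replicate 2 minus replicate 1 (y axis) against the GC content of the longest transcript in percent (x axis) for the 211 members, in control ESCs and knockout ESCs, coloured by the KRAB box. In knockout ESCs the points fall from above 0 at low GC content to below 0 at high GC content (correlation -0.75).

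The direction of the KRAB members in knockout ESCs depended on the library used. Without knockout ESC replicate 2, 24 of 104 were lower and 1 was higher, with a median of -0.30. Without knockout ESC replicate 1, 8 were lower and 12 higher, with a median of 0.03. With both libraries 4 were lower and 2 higher, with a median of -0.11. Of the 107 members without the box, 27 were lower and 4 higher, 31 and 5, and 11 and 0 in the same 3 fits, with most not called, at medians of -0.17, -0.19 and -0.15. Over all members, 51 were lower and 5 higher without replicate 2 (10.2% and 9.51% of all genes tested), and 39 were lower and 17 higher without replicate 1 (15.2% and 10.7%). Without control ESC replicate 1, 4 members were lower and 0 higher (1.72% and 2.93% of all genes tested), and without replicate 2, 3 and 0 (1.48% and 2.64%). Of the 15 lower members, 13 were called lower whichever knockout library was left out, with Zfp36 and Zfp334 as the exceptions.

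In knockout EBs, 5 members were lower and 2 were higher than in control EBs, against 2.04% lower and 4.75% higher over all genes tested. Among the 9679 tested genes at 10 CPM or more, 2.79% were lower and 5.07% higher. The median log2 change was -0.04, against 0.00 over all genes tested. The lower members were Zfp608, Zfp365, Zfp334, Zfp36 and Zfp266, and the higher members were the KRAB genes Zfp57 and Zfp936. With the GC trend removed, 12 members were lower and 14 higher (4.58% and 9.9% of all genes tested), 11 of the latter with a KRAB box, and without composition factors 5 were lower and 4 higher (1.75% and 5.09%). A fit to the EB libraries alone called 19 lower and 13 higher (7.94% and 9.06%), and a fit without knockout ESC replicate 2, which is not part of the comparison and whose removal also moved the genes tested from 17125 to 18228, called 23 and 13 (8.04% and 9.1% of all genes tested).

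Zfp57 (ENSMUSG00000036036.15, chromosome 17, 37001163 to 37010635 in mm10, plus strand) was at 369 and 357 CPM in control ESCs, also 369 and 389 CPM in knockout ESCs, but 232 and 211 CPM in control EBs and 338 and 345 CPM in knockout EBs. The control EB libraries were the lowest of the 8. Between the genotypes the log2 change was 0.62 ± 0.08 in EBs (adjusted p = 0.00156 by edgeR), and 0.06 ± 0.08 in ESCs (adjusted p = 0.678). The EB call passed in all 13 alternatives. No 50-base word of its transcript occurred in another gene.

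Zfp365 (ENSMUSG00000037855.15, chromosome 10, 67886103 to 67912662 in mm10, minus strand) went from 34.8 and 36.9 CPM to 29.5 and 26.6 CPM between control and knockout ESCs, and from 31.6 and 31.4 CPM to 16.2 and 16.4 CPM between control and knockout EBs. In EBs the log2 change was -0.95 ± 0.12 (adjusted p = 0.00147 by edgeR, passed in all 13 alternatives), and in ESCs it was -0.36 ± 0.12 (adjusted p = 0.0749). The knockout libraries lay below the controls at both stages. Zfp608, which in mouse thymocytes limits expression of the Rag genes, was between 4.37 and 5.94 CPM in ESC libraries and entered the group through the EB libraries, so that the EB comparison is not independent of its choice. It was at 28.6 and 37.5 CPM in control EBs and 13.3 and 15.5 CPM in knockout EBs (-1.19 ± 0.20, adjusted p = 0.00618). That call was lost with control EB replicate 2 left out (adjusted p = 0.0801 by edgeR) and with knockout EB replicate 1 left out (0.0652).

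The 3 members Zfp36, Zfp266 and Zfp334 were lower in the knockout at both stages, which is 20% of those lower in ESCs and 60% of those lower in EBs. Over all genes tested the same shares were 18.3% and 55.4%. No member was higher at both stages. For Zfp36 the ESC libraries were at 17.9 and 16.6 CPM (control) and 12.4 and 9.17 CPM (knockout), and the EB libraries at 26.1 and 24.3 CPM (control) and 14.6 and 13.5 CPM (knockout), with no overlap at either stage. The log2 change was -0.68 ± 0.18 in ESCs (adjusted p = 0.0291 by edgeR) and -0.84 ± 0.17 in EBs (adjusted p = 0.018). Zfp266, a KRAB gene whose loss was reported to ease reprogramming of mouse cells, stood at 74.5 and 87.4, 48 and 60.8, 101 and 92.5, and 62.3 and 61.9 CPM in control ESCs, then knockout ESCs, then control EBs, then knockout EBs. Its changes were -0.58 ± 0.13 (adjusted p = 0.0137 by edgeR) and -0.64 ± 0.13 (0.0156). Zfp334 changed by -0.74 ± 0.20 and by -0.90 ± 0.20 (adjusted p = 0.0349 and 0.0276), from 14.7 and 14.8 CPM in control to 6.7 and 9.13 CPM in knockout EBs. Its knockout libraries lay below 10 CPM at both stages, so it too entered through the controls. Of the 186 members at 10 CPM or more in every group, 3 (1.61%) were lower in knockout EBs, against 5 (2.37%) of all 211.

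Without knockout EB replicate 1, the library with liver transcripts, 1 member was called higher in knockout EBs (Zfp57) and 1 lower (Zfp365), against 1.92% and 0.33% of all genes tested. The calls of Zfp936, Zfp334, Zfp266 and Zfp36 were then lost, as was that of Zfp608. Those of Zfp936, Zfp266 and Zfp36 were also lost without each of the other EB libraries, and that of Zfp334 without either control EB library. With control EB replicate 1 left out, 1 member was higher and 2 lower (1.07% and 0.219% of all genes tested), with replicate 2 left out 1 and 1 (1.66% and 0.402%), and with knockout EB replicate 2 left out 1 and 3 (3.06% and 0.429%).

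The knockout effect differed between EBs and ESCs for 2 members, Zfp819 and Zfp57, and was in both higher in EBs (1 among members at 10 CPM or more in every group, which leaves out Zfp819), against 0.742% of all genes tested called in that direction and 0.642% in the other. Among the 9679 tested genes at 10 CPM or more, these shares were 1.17% and 0.93%. For Zfp819 the difference of log2 changes was 1.29 ± 0.26 (adjusted p = 0.0441 by edgeR), from -1.38 in ESCs and -0.09 in EBs. For Zfp57 it was 0.56 ± 0.12 (adjusted p = 0.0457), from 0.06 and 0.62. The Zfp819 call was lost in 8 of 16 alternatives and the Zfp57 call in 9, among them the fit with the genes of a mean of 1 CPM or more (0.0574 and 0.0611). Zfp608 (-1.07 ± 0.31, adjusted p = 0.155) and Zfp365 (-0.59 ± 0.17, adjusted p = 0.157) did not pass, so that their effects are not shown to differ between the stages. Without knockout ESC replicate 1, 22 members were called higher and 4 lower (8.0% and 3.15% of all genes tested), and without replicate 2, 27 and 1 (3.06% and 2.33%). With the GC trend removed the counts were 8 and 1 (2.43% and 1.86%), and DESeq2 gave 3 and 0. At an unadjusted p below 0.05, with the share over all genes not counted, edgeR had 22 members, which are not calls. None was called without any one of the other 6 libraries.

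**Figure D3:**
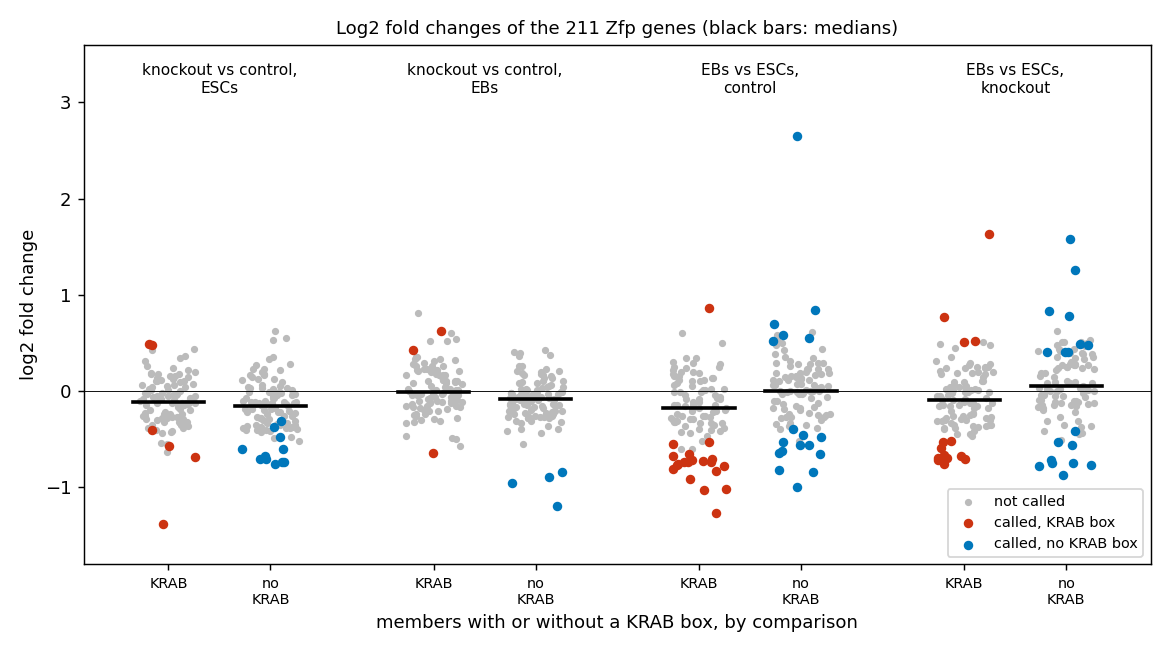
Log2 fold changes (y axis) of members with and without a KRAB box in 4 comparisons, with each point a member, called members coloured and black bars at the medians. The KRAB members lie lowest from control ESCs to control EBs, with a median of -0.17 and 19 called lower, and Zfp608 stands alone at 2.65.

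From control ESCs to control EBs, 31 members were lower and 7 higher, against 9.63% lower and 8.6% higher over all genes tested. The lower members made up 14.7% of the 211, and the higher members 3.32%. These shares were 11.4% and 10.99% among the 9679 tested genes at 10 CPM or more. Of the 104 members with a KRAB box, 19 were lower and 1, Zfp942, was higher, at a median log2 change of -0.17. Among these 19, Zfp59, Zfp825, Zfp960, Zfp97, Zfp975 and Zfp976 share 20% or more of their words with other genes, so their values are uncertain. Of the 107 without one, 12 were lower and 6 higher, at a median of 0.00, and the median of all genes tested was -0.01. The difference between the 2 classes was not tested. With the GC trend removed the members split into 41 lower and 20 higher (14.3% and 11.2% of all genes tested), and the KRAB members into 23 and 7 with a median of -0.12. A further 28 genes with a KRAB box and C2H2 fingers but other names had 6 lower and 0 higher, at a median of -0.21.

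Zfp59 (ENSMUSG00000078779.4, chromosome 7, 27838607 to 27856438 in mm10, plus strand), a KRAB gene, was at 52.4 and 60.1 CPM in control ESCs and 21.9 and 24.9 CPM in control EBs, and at 38 and 51.4 CPM and 33.7 and 34.5 CPM in the knockout. Its log2 change in control was -1.26 ± 0.16 (adjusted p = 0.000427 by edgeR, passed in all 13 alternatives). The groups did not overlap, but 52.4% of its transcript's words occur in other genes, so that its own level is uncertain. Zfp568, a KRAB protein that represses a placental transcript of Igf2 in the mouse, was at 221 and 233 CPM in control ESCs and 138 and 120 CPM in control EBs, and at 178 and 232 CPM and 162 and 151 CPM in the knockout. It fell by 0.81 on the log2 scale (SE 0.13, adjusted p = 0.0019 by edgeR), and Zfp57 by 0.71 (SE 0.08, adjusted p = 0.000278).

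Further down the order came Zfp74 (-1.03 ± 0.20, adjusted p = 0.0054 by edgeR), Zfp977 (-1.02 ± 0.26, 0.0231), Zfp704, which fell by 1.00 (SE 0.13, adjusted p 0.000738), and Zfp28 (-0.91 ± 0.20, 0.012). Of these Zfp704 has no KRAB box, and its call passed in all 13 alternatives. It stood at 46.9 and 43.7 CPM in control ESCs and 24.9 and 20.4 CPM in control EBs. Zfp977 and Zfp28 lay below 10 CPM in control EBs and entered through other groups, and their calls were lost without any one of the 4 control libraries.

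Zfp608 had the highest log2 change, at 2.65 ± 0.22 (adjusted p = 2.48e-05 by edgeR), from 5.94 and 4.61 CPM in control ESCs to 28.6 and 37.5 CPM in control EBs. Its ESC levels were below 10 CPM, so it entered the group through the EB libraries and a difference was part of its choice. The same holds for Zfp942 (0.87 ± 0.19), at 7.82 and 6.33 CPM in control ESCs and 12.8 and 12.9 CPM in control EBs, and for Zfp282 (0.85 ± 0.25), at 6.51 and 6.82 CPM and 12.1 and 11.9 CPM. Zfp592 was at 28.3 and 25.3 CPM in control ESCs and 44.3 and 42.3 CPM in control EBs (0.70 ± 0.15, adjusted p = 0.00848), and Zfp687 at 46.2 and 48.4 CPM and 68.4 and 73.2 CPM (0.58 ± 0.13, adjusted p = 0.0106). Both calls were lost without any one of the 4 control libraries (adjusted p from 0.06 to 0.127 for Zfp592 and from 0.0641 to 0.12 for Zfp687, by edgeR). Zfp532 stood at 126 and 131 CPM and 131 and 120 CPM (-0.03 ± 0.09, adjusted p = 0.839).

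Counts of calls in this comparison moved with single libraries. Without control ESC replicate 1, 6 members were lower and 2 higher (3.23% and 2.29% of all genes tested), and without replicate 2, 8 and 1 (2.61% and 1.91%). Without control EB replicate 1, 8 were lower and 1 higher (3.53% and 3.05%), and without replicate 2, 6 and 1 (3.99% and 2.84%). Without knockout EB replicate 1, 27 were lower and 4 higher (6.87% and 6.0%). Without knockout ESC replicate 2, also not part of the comparison, 48 were lower and 30 higher (15.0% and 15.2% of all genes tested).

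From knockout ESCs to knockout EBs, 19 members were lower and 13 higher, against 7.11% and 8.23% of all genes tested, at a median of -0.01. Among the 9679 tested genes at 10 CPM or more, 8.71% were lower and 10.8% higher. With the GC trend removed, 22 were lower and 27 higher (11.4% and 10.4%). Of those lower in control differentiation, 13 (41.9%) were also lower in the knockout, which is 68.4% of the knockout list, against 40.3% and 54.6% over all genes tested. The difference between these shares was not tested. They include Zfp106, at 621 and 678 CPM in control ESCs and 491 and 497 CPM in control EBs, and at 548 and 642 CPM and 449 and 445 CPM in the knockout, which fell by 0.40 on the log2 scale in control (adjusted p = 0.0124 by edgeR) and by 0.41 in the knockout (adjusted p = 0.0123). Zfp397 fell by 0.82 and 0.75, Zfp74 by 1.03 and 0.70, and Zfp704 by 1.00 and 0.56. The control calls of Zfp106 and Zfp397 were lost without any one of the 4 control libraries, and that of Zfp74 without 3 of them. In the knockout, the calls of Zfp106, Zfp397, Zfp74 and Zfp704 were lost without either knockout EB library. Only Zfp608 was higher in both comparisons, at 2.65 and 1.58, and no member was called in opposite directions.

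The highest log2 changes in the knockout were those of Zfp819 (1.63 ± 0.19, adjusted p = 0.000429 by edgeR), Zfp608 (1.58 ± 0.22, 0.00123), Zfp428 (1.26 ± 0.22, 0.00478) and Zfp408 (0.83 ± 0.14, 0.00359), the last a gene whose human counterpart is mutated in inherited retinal disease. Zfp819 rose from 6.85 and 9.97 CPM to 26.7 and 25.5 CPM, and in control its log2 change was 0.34 ± 0.18 (adjusted p = 0.213). That rise uses the same 2 knockout ESC libraries as its lower level in knockout ESCs. Zfp819 and Zfp608 lay below 10 CPM in knockout ESCs and entered the group through libraries in which they were higher. Their rise is therefore not independent of their choice. Zfp408 rose from 14.1 and 13.2 CPM to 23.4 and 25.2 CPM. Zfp428, with the highest GC content of all members (64.4%), stood at 29.2 CPM in knockout ESC replicate 1 and 15.9 CPM in replicate 2. The lowest changes were those of Zfp449 (-0.88 ± 0.21, adjusted p = 0.0216 by edgeR), Zfp365 (-0.78 ± 0.12, 0.00267), Zfp61 (-0.76 ± 0.18, 0.0197) and Zfp369 (-0.76 ± 0.17, 0.0147). Zfp449 and Zfp61 lay below 10 CPM on average in at least 1 group. Of the 186 members at 10 CPM or more in every group, 16 were lower and 11 higher (8.6% and 5.91%).

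For the KRAB members this comparison again followed the knockout ESC library. With both libraries 10 were lower and 4 higher, without replicate 1 there were 31 lower and 6 higher, and without replicate 2 there were 3 lower and 19 higher. Over all members the counts were 48 lower and 42 higher without replicate 1 (12.3% and 17.6% of all genes tested), and 12 lower and 31 higher without replicate 2 (6.44% and 8.73%). Without knockout EB replicate 1, 2 were lower and 4 higher (1.87% and 2.76%), and without knockout EB replicate 2, 3 and 5 (2.22% and 4.26%).

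By chromosome, the members were concentrated on chromosome 7 with 49, chromosome 17 with 27, chromosome 4 with 17, chromosome 13 with 16 and chromosome 8 with 14. Of the 31 members lower in control differentiation, 15 lay on chromosome 7, 11 of them with a KRAB box, and 6 on chromosome 17. On chromosome 7 the median log2 change of the members was -0.13, against 0.02 over the 1347 genes tested there, of which 9.13% were lower. On chromosome 17 the members' median was -0.29, against 0.00 over 848 genes, of which 9.79% were lower. On chromosome 8 none of 14 members was called, at a median of 0.03, where 8.59% of all genes tested were lower and 9.67% higher. In knockout ESCs, 3 of the 49 members on chromosome 7 were lower (6.12%, against 5.27% of all genes tested there), at a median of -0.22 against -0.06 over all genes tested there.

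**Figure D4:**
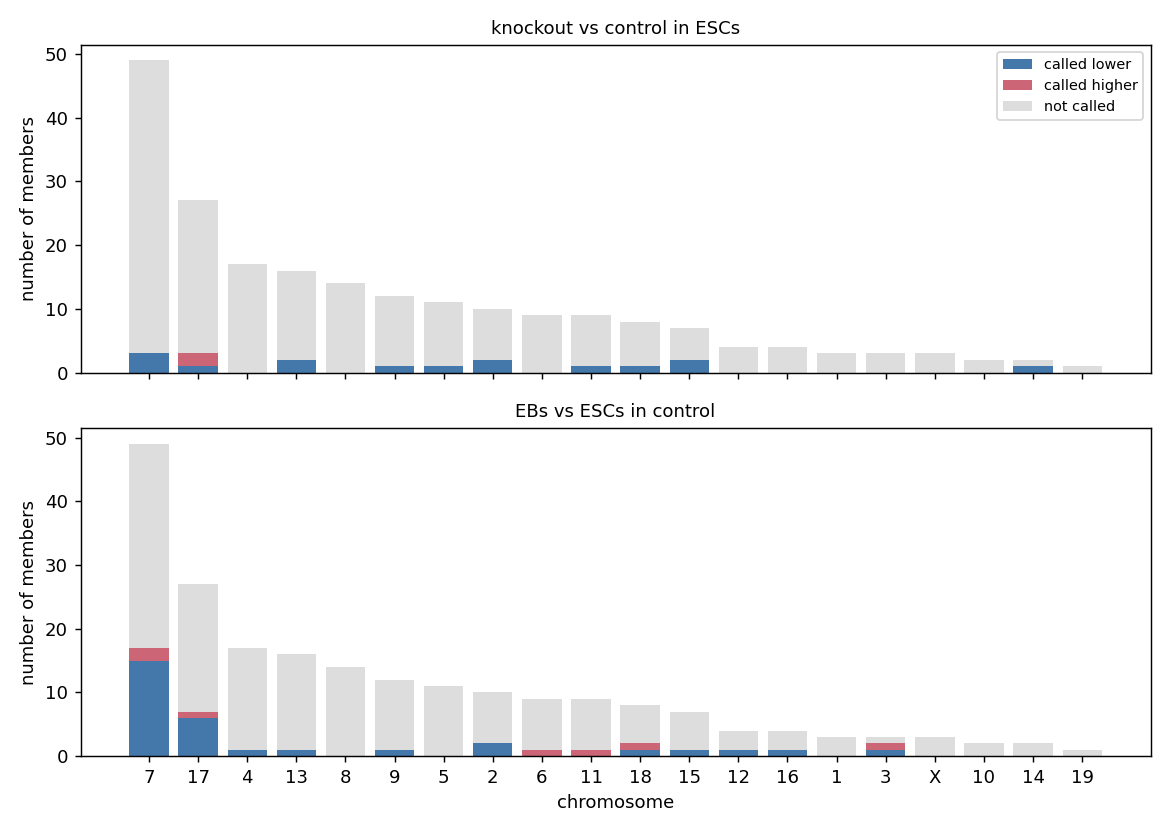
Number of members (y axis) on each chromosome (x axis), split into those called lower, called higher and not called, for knockout against control in ESCs and for EBs against ESCs in control. Chromosome 7 holds 49 members, of which 15 were lower from control ESCs to control EBs.

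Members whose starts lay within 500 kb of the next formed 17 clusters of at least 3. The cluster at 145510759 to 147809788 on chromosome 4 held 15 members, all with a KRAB box, and none was called in any comparison. Its median log2 change was -0.03 in knockout ESCs (range -0.28 to 0.15) and -0.04 in control differentiation (range -0.33 to 0.28). Most of these genes share long stretches, so the counts of single genes are uncertain, with Zfp987 sharing 92.1% of its words and Zfp600 83.3%. In 3 clusters on chromosome 7, with 5, 9 and 8 members, 3, 3 and 4 members were lower in control differentiation. The first 2 lie between 27731389 and 30169750, and the third at 42473386 to 43618285. The other clusters there, with 3, 4, 4 and 5 members, had 1, 1, 2 and 0 lower. Over all genes tested on chromosome 7, 9.13% were lower.

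The chromosome 7 cluster at 42473386 to 43618285 holds Zfp819 and 7 other KRAB genes. Zfp977, Zfp976, Zfp975 and Zfp715 were lower in control EBs than in control ESCs, Zfp141 and Zfp719 were not called in any of these comparisons, and Zfp936 was higher in knockout EBs, at 48.3 and 48.3 CPM in control and 67.2 and 62.6 CPM in knockout EBs (0.43 ± 0.11, adjusted p = 0.0445 by edgeR). In knockout ESCs Zfp819 was the only member of the cluster called. The chromosome 13 cluster at 67339306 to 67792512 had 7 of 7 log2 changes below 0 in knockout ESCs, at a median of -0.32, of which Zfp459 (-0.69 ± 0.15, adjusted p = 0.0135 by edgeR) and Zfp493 were called. Zfp459 was at 58.1 and 55.7 CPM in control and 30 and 40.5 CPM in knockout ESCs. The direction was not particular to this cluster. Every change in knockout ESCs was also below 0 in chromosome 7 clusters of 3, 5 and 5 members (medians -0.49, -0.29 and -0.38). The same held in a chromosome 15 cluster of 3 members (median -0.14). Of all 211 members, 148 had a change below 0.

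**Figure D5:**
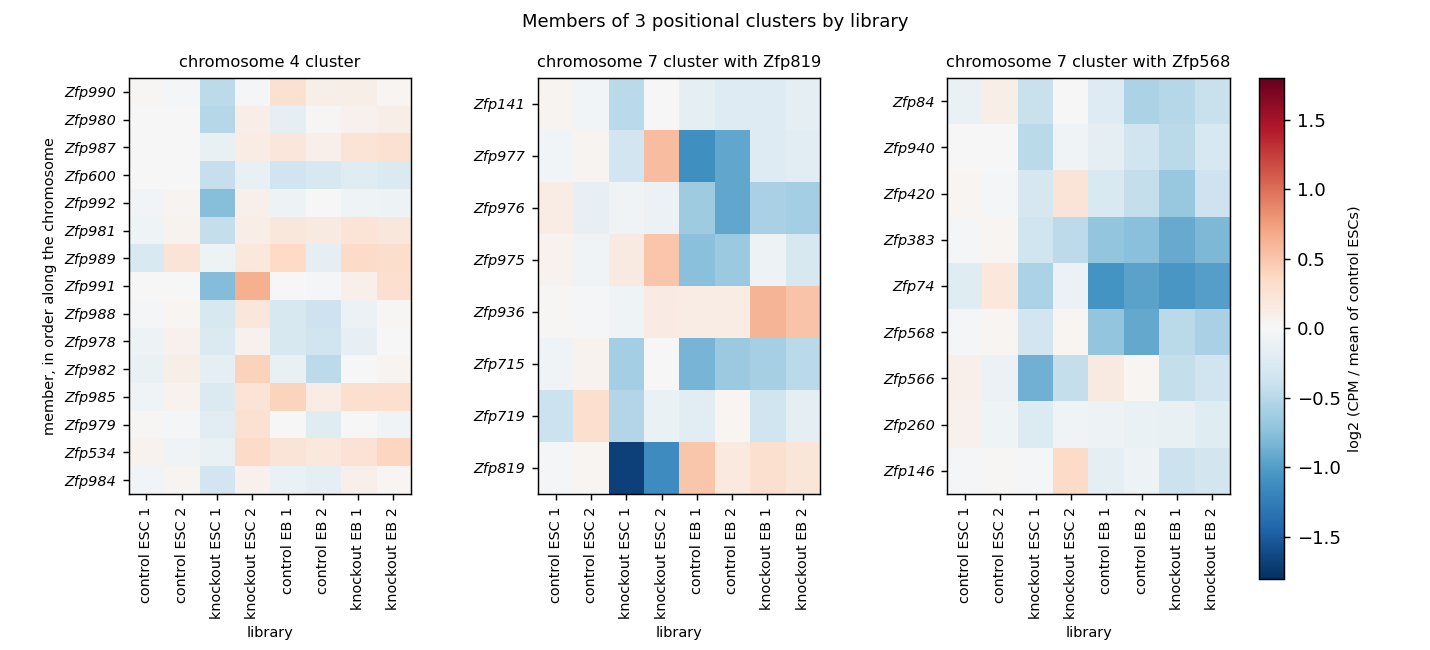
Log2 ratio of each library's CPM to the mean of control ESCs (colour) for the members of 3 clusters (rows, in order along the chromosome) in the 8 libraries (columns). Zfp819 stands out in its chromosome 7 cluster as low in both knockout ESC libraries, and the chromosome 4 cluster shows no member called in any comparison.

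By role, the listed repressors of retroelements, imprints and single loci had 7 members, and Zfp708 lay below the threshold at 0.0185 CPM. Zfp819 was the only 1 of the 7 called in knockout ESCs, Zfp57 the only 1 in knockout EBs, and Zfp57 and Zfp568 fell in control differentiation. Zfp445, which acts beside ZFP57 on imprints, stood at 128 and 130, 114 and 127, 117 and 99.4, and 98.1 and 96.9 CPM in control ESCs, then knockout ESCs, then control EBs, then knockout EBs. Zfp809, which silences murine leukaemia virus through its primer binding site, stood at 53.8 and 59.6, 55.4 and 69.6, 48 and 44.3, and 50.7 and 53.1 CPM in the same order. Neither passed the test in any comparison, nor did Zfp932 or Zfp600.

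The pluripotency and development list had 4 members, with Zfp521, Zfp703 and Zfp503 below the threshold at 0.622, 1.59 and 0.554 CPM. Zfp217, lower in knockout ESCs as above, was the only 1 of the 4 called in any comparison. Zfp281, which limits Nanog in mouse ESCs, was at 159 and 145 CPM in control against 98.6 and 131 CPM in knockout ESCs, and at 174 and 190 CPM against 134 and 136 CPM in EBs. The knockout libraries lay below the controls at both stages, yet neither change passed (-0.40 ± 0.13, adjusted p = 0.0608, and -0.43 ± 0.13, adjusted p = 0.0722, by edgeR). Zfp706, a factor in the exit of mouse ESCs from self-renewal, lay between 146 and 166 CPM in all 8 libraries, and Zfp423, a cofactor of BMP signalling, between 15.2 and 25.2 CPM, and neither was called.

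Of the 7 members of the chromatin and transcription list, Zfp532 was lower in knockout ESCs and Zfp592 and Zfp687 higher in control differentiation, as above. Zfp143, an activator of many promoters, Zfp410, which in human and mouse cells controls Chd4, Zfp638, which silences unintegrated retroviral DNA in human cells, and Zfp148 were not called in any comparison. Of the 5 genes of RNA, ubiquitin, SUMO and mitosis, Zfp36 was called, and Zfp598 (a ligase of stalled ribosomes), Zfp451 (a SUMO ligase), Zfp207 and Zfp91 were not. In all, 145 of the 211 members (68.7%) were called in none of the 4 comparisons of groups, against 68.0% of all genes tested.

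Of 23 listed genes of the corepressors that KRAB proteins recruit, 2 were lower and 0 higher in knockout ESCs (8.3% of all genes tested were higher and 6.2% lower), namely Cbx1 (-0.47, adjusted p = 0.00907 by edgeR) and Chd4 (-0.30, 0.0249). In knockout EBs 2 were lower (2.04% of all genes tested), namely Cbx1 (-0.41, adjusted p = 0.033) and Pphln1 (-1.12, 0.00131), a subunit of the HUSH silencing complex. In control differentiation 5 were higher and 4 lower (8.6% and 9.63% of all genes tested), with Pphln1 at 1.28 and Cbx5 at -0.59, and in the knockout 3 and 2 (8.23% and 7.11%). Of 23 tested genes named Zkscan or Zscan, 1 was lower in each knockout comparison, Zscan10 in both (-0.64, adjusted p = 0.00313, and -0.41, adjusted p = 0.0484, by edgeR).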

How the data were processed

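Polyadenylated RNA of control and Zfp462 knockout R1 cells was sequenced as ESCs and as day 3 EBs, in 8 libraries, 2 per group. The authors deposited raw counts per gene, whole numbers that were not normalized, per the file headers. HISAT2, featureCounts, DESeq2 and the build mm10 are named in the submitters' processing notes. Neither the strand setting nor the handling of reads with several matching genes is given in the sources used here, so reads of a gene and of its antisense neighbour are not separable.

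Symbols were taken from GENCODE M21 for 55141 of 55401 genes. Counts were scaled with TMM factors, filtered with filterByExpr (17125 genes kept) and fitted with edgeR's quasi-likelihood test over all 8 libraries, 1 mean per group, with Benjamini-Hochberg adjustment over all genes and calls at an adjusted p below 0.05. The 5 contrasts are those of the report. C2H2 fingers (2 to 4, 12 and 3 to 5 residues between the zinc ligands) were counted in each gene's longest protein, translated from GENCODE M21 coding transcripts. A KRAB box was counted if the translation of any coding transcript of the gene held the pattern. GC content is that of the longest transcript of any type. A table of proteins was not used here. Promoter windows and their sequences are those of RefSeq, GRCm38.p6. The tools were R (4.3.3) with edgeR (4.0.16) and limma (3.58.1), and as an alternative DESeq2 (1.42.0).

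The members, lists and rule for named genes were chosen with earlier results of these data known. The rule named the 6 members with the highest mean CPM, per contrast of groups the 5 highest and 5 lowest log2 changes among called members whose groups did not overlap, for the difference contrast the 3 highest and lowest called, the members of 4 lists by role, the 3 genes on either side of the threshold, and Zfp462. Others named in the text were chosen after their values were seen. The alternatives were other scalings and filters, a replicate block, fits to fewer groups, DESeq2, a 2-fold limit, GC trends removed (a spline with 5 degrees of freedom), other thresholds of membership and each library left out. The fit was tested on simulated data: in the ESC contrast over 16649 genes it called 85 of 100 genes changed by 1 on the log2 scale and 20 of 100 changed by 0.5, with 12 false calls. The simulated replicates did not differ along GC content, as the knockout ESC libraries do. These rates therefore need not hold for the real contrast. Depth of 12119763 to 16228426 counts limits the precision of members near 10 CPM.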

Additional observations from a re-analysis of the deposited data

Results flagged for a closer look

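The knockout effect on Zfp819 differed between stages by a tested difference of 1.29 on the log2 scale (EBs minus ESCs, SE 0.26, adjusted p = 0.0441 by edgeR). Both knockout ESC libraries, at 6.85 and 9.97 CPM, lay below the 2 control ESC libraries, and the EB libraries overlapped. The knockout effect on Zfp57 differed by 0.56 (SE 0.12, adjusted p = 0.0457), with both knockout EB libraries above both control EB libraries and overlapping levels in ESCs. Zfp819 lay below 10 CPM in knockout ESCs and so entered the group through the libraries in which it was higher, and among members at 10 CPM or more in every group the count of stage differences was 1. The adjusted p ranged from 0.000137 to 0.32 over the alternatives for Zfp819 and from 0.00346 to 0.285 for Zfp57.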

How the results depend on the processing

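Counts are given as higher and lower, for the knockout in ESCs, the knockout in EBs, control differentiation, knockout differentiation and the stage difference in that order. No named result reversed its direction when called. With the GC trend removed they were 8 and 26, 14 and 12, 20 and 41, 27 and 22, and 8 and 1. Fits to the groups compared gave 0 and 4, 13 and 19, 32 and 50, and 3 and 1. Calls over all genes moved with the fit too. In the fit to the EB groups, 9.06% of 16002 genes were higher and 7.94% lower, against 4.75% and 2.04% in the main fit. Where no share over all genes is given, a count is therefore not a result about the members. With no low-count filter the counts were 1 and 20, 6 and 9, 13 and 40, 26 and 25, and 5 and 1. A 2-fold limit left 0 and 1, 0 and 1, 1 and 3, 3 and 0, and 1 and 0. DESeq2 gave 1 higher in knockout ESCs, its size factors 1 higher for the stage difference, and the 1 CPM filter 0 there. Without composition factors, 4 members were higher in control differentiation and 4 in knockout EBs. Members at 10 CPM in every group gave 4 higher in control differentiation, 3 lower in knockout EBs and 1 for the stage difference. Members at 20 CPM gave 3 and 19 in control differentiation, 10 lower in knockout differentiation and 2 lower in knockout EBs.

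With each library of a comparison left out in turn, the range was 0 to 17 higher and 3 to 51 lower in knockout ESCs, 1 to 1 and 1 to 3 in knockout EBs, 1 to 2 and 6 to 8 in control differentiation, 4 to 42 and 2 to 48 in knockout differentiation, and 0 to 27 and 0 to 4 for the stage difference. Libraries outside a comparison also moved counts: without knockout ESC replicate 2, 13 and 23 members were called in knockout EBs and 30 and 48 in control differentiation. Without knockout EB replicate 1, 4 members were higher in control differentiation and 1 in knockout ESCs. The cause was not tested. Left-out groups keep 1 library, which is then assumed to vary like the others.

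Replicate numbers were shared between groups only as numbers, since the correlations of deviations lay between -0.11 and 0.05 over 9590 genes. With the replicate block, 1 and 14, 2 and 5, 8 and 31, 14 and 17, and 0 and 0 members were called, and with the block and the GC trend removed together, chosen after seeing the data, 9 and 26, 12 and 12, 18 and 42, 26 and 23, and 9 and 1. A wider KRAB pattern, also chosen later, put 109 members in that class, with 1 higher and 19 lower in control differentiation. In knockout ESCs 2 of that class were higher and 6 lower, against 2 and 4 with the narrower pattern. In knockout EBs the counts were 2 and 2, against 2 and 1.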
